A study of Mus musculus with 80 samples.

Results

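The genes described here encode the proteins of fatty acid oxidation and of the peroxisome, measured in whole kidney of ageing mice. Members were taken by their gene symbols: the acyl-CoA dehydrogenases (Acad), oxidases and thioesterases (Acox, Acot), synthetases (Acsl, Acsm), the hydratases, isomerases and thiolases of the oxidation spiral (Hadh, Ech, Eci, Ehhadh, Acaa, Decr), the carnitine transferases (Cpt, Crat), the electron transfer proteins (Etf), the peroxins (Pex), the peroxisome proliferator-activated receptors with their coactivators (Ppar) and the fatty acid binding proteins (Fabp). Of 16896 spotted cDNA clones, 39 carried exactly 1 such symbol, 16 on filter set A and 23 on set B. They stand for 35 of the 7151 genes that could be named. A gene with 2 clones (Acadl, Acot7, Acsl4 and Pex19) is represented by the brighter one, and 6 clones listed with several symbols were left out. Several textbook genes of the pathway, such as Cpt1a, Ehhadh and Pparg, had no clone of 1 symbol and are not analysed here.

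Kidneys of 40 C57BL/6 mice, an inbred strain given regular feed freely in every group, were hybridised as radioactively labelled cDNA to 80 nylon filters, 1 of each set per mouse. The 8 groups held 5 males or 5 females of 17 to 44, 169 to 194, 476 to 499 or 704 to 743 days. The deposited values are z scores, distances from a filter's mean in units of that filter's SD (array SD), so no difference below is a fold change, and levels of different clones are not compared. The scale before this transformation is not given in the sources used here.

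As background, fatty acids are bound by carrier proteins, joined to coenzyme A by synthetases and passed into mitochondria by the carnitine transferases. There each turn of beta-oxidation runs through an acyl-CoA dehydrogenase, a hydratase, a hydroxyacyl-CoA dehydrogenase and a thiolase, while electron transfer flavoprotein carries the electrons on to the respiratory chain. Peroxisomes, which peroxins assemble, shorten very long and branched chains. Proximal tubule cells of the kidney depend heavily on this fuel, and the receptor PPARalpha is the best known activator of these genes.

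Hybridisations fell into 5 rounds by the serial numbers in the titles, each holding a male and a female mouse per age group; no label says what a round stands for. Mice of the same round, compared between ages within a sex or between sexes within an age, are called couples below. Filters of 7 mice correlated poorly with the rest, among them 2 young males (replicates 1 and 5). A mouse counts here if the filter of either set did so, so its other filter may be sound. Several member results are also given without such mice, but not all. For 1 male of 714 days the description names another mouse than the title. The youngest group mixes 5 mice of 17 to 21 days with 5 older ones. Nothing on the labels ties mice to litters or cages, so each mouse was taken as an independent unit. The spread behind a p-value also includes that between filters and rounds, since each mouse has 1 filter per set.

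The promoter that bears most directly on a pair of measured members is the one between Hadha and Hadhb, the alpha and beta subunits of the mitochondrial trifunctional protein, which are transcribed in opposite directions. Their start sites lie 272 bases apart on chromosome 5, and their promoter windows (RefSeq, GRCm38.p6, 250 bases before to 50 after the start) share 228 bases. Hadhb is on the plus strand (chr5:30155003-30155302) and Hadha on the minus strand (chr5:30154931-30155230). Acadm, which encodes medium-chain acyl-CoA dehydrogenase and is a textbook PPARalpha target, is shown for its nuclear receptor core motif (minus strand, chr3:153944594-153944893). Each is printed on its gene's own strand. Capitals mark GGGCGG (GC box) or AGGTCA (core motif) on either strand.
Hadhb: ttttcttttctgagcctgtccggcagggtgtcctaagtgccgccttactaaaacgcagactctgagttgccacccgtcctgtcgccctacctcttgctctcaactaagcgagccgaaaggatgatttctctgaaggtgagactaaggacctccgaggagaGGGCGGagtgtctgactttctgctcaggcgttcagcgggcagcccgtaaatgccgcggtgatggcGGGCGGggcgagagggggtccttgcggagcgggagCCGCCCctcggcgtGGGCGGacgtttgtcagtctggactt
Hadha: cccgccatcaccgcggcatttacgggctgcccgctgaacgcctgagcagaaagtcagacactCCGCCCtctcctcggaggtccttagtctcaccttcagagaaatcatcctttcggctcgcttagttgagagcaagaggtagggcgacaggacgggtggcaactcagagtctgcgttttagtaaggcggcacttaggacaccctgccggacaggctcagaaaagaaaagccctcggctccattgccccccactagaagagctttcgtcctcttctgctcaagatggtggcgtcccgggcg
Acadm: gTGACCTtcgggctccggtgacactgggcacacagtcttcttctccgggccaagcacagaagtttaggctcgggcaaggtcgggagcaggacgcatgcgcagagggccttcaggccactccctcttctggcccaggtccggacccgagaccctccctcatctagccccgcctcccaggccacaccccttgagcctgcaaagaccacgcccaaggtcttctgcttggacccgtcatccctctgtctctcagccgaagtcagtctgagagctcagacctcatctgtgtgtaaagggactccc

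RefSeq promoters of 28 of the 35 members were searched, as 29 windows. GGGCGG stood in 22 of these 29 windows (75.9%), against 35.7% of all 32851 windows and 46.2% of those of protein-coding genes. AGGTCA stood in the windows of Acadm, Acadvl and Echs1 (10.3%, against 16.3% of all). The direct repeat of 2 AGGTCA copies with 1 base between them, which contains AGGTCA and is the classic site of PPAR with its partner RXR, was in 0 of 29 member windows and in 13 of all windows (0.0396%). TATAAA was in those of Acot9 and Pex16 (6.9%, against 13.6% of all). These are letter matches within 300 bases, both strands searched, and say nothing about binding. No promoter was searched for Acaa2, Acad9, Acot13, Fabp5, Pex19, Pex2 and Ppargc1b. Member windows on 1 chromosome were left out of the search, while the counts over all windows kept that chromosome.

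No fatty acid oxidation or peroxisome gene was called as changed with age or between the sexes. In limma, at an adjusted p under 0.05 over all 16896 clones, 0 of 39 member clones passed for the age slope, for adult (169 to 194 days) minus young (17 to 44 days), for old (704 to 743 days) minus adult, for male minus female, or for a dependence of the sex difference on age. The background was as empty for the 4 comparisons that involve age (0% of all clones called in each), and 0.107% of clones were called between the sexes. At an unadjusted p under 0.05, 3 of the 35 member genes passed for the age slope (5.2% of all clones did), 1 for adult minus young (5.08%), 1 for old minus adult (2.36%), 0 for sex (4.48%) and 2 for the varying sex difference (3.23%).

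The intervals give bounds, set here against a size taken from these same data and not fixed in advance. The smallest sex difference called for any clone on these filters was 0.204 array SD and the largest 0.722. The 95% interval of male minus female lay within 0.204 of 0 for 31 of 35 member genes, all except Acadm, Echdc2, Eci1 and Fabp5. The steps between age groups, for which no clone was called, were less precise. For them 18 genes lay inside that bound for adult minus young and 21 for old minus adult. For the age slope, a different quantity, the intervals reached between 0.0478 and 0.148 per year to each side of the estimate.

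**Figure D1:**
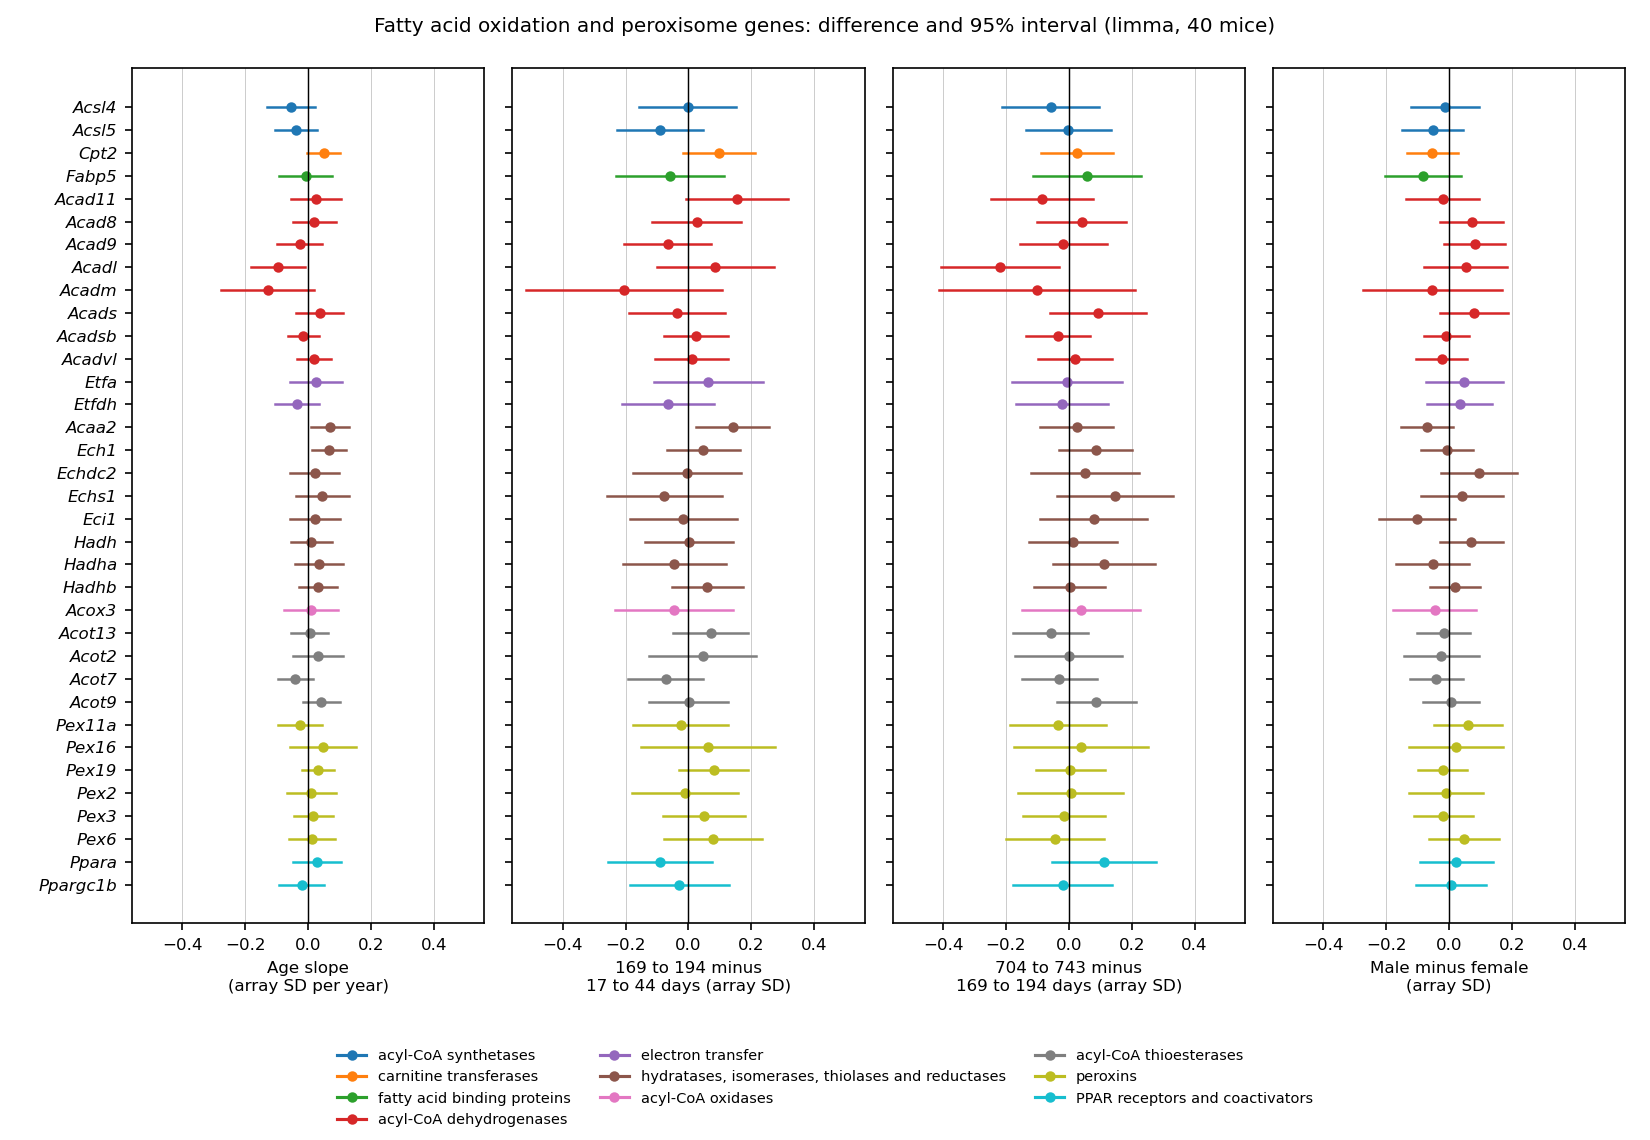
Differences of the 35 member genes (rows, coloured by role) in 4 comparisons, in array SD (per year for the slope); points are limma estimates over 40 mice and bars their 95% intervals. Intervals excluded 0 for 3 genes in the slope (Acaa2, Ech1, Acadl), 1 in adult minus young (Acaa2), 1 in old minus adult (Acadl) and 0 between the sexes.

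Among the regulators, Ppara, the gene for PPARalpha, gave a dim spot, among the lowest 25% of its set, with values of -1.17 to -0.493 over the 40 mice (median -0.783). Its means were -0.793 ± 0.198 in young, -0.885 ± 0.163 in adult, -0.803 ± 0.21 at 476 to 499 days and -0.774 ± 0.113 in old mice (SD, n = 10 each). All 4 age groups overlapped. The old minus adult difference was 0.111 (SE 0.0819, limma adjusted p = 0.9997). Ppargc1b, which encodes a coactivator of oxidative genes, had means of 1.16 ± 0.164, 1.13 ± 0.217, 1.14 ± 0.141 and 1.11 ± 0.111 at the 4 ages (SD, n = 10 each), and a sex difference of 0.00524 (SE 0.0548). Neither regulator's age groups separated.

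Of the genes that bring fatty acids in, Cpt2, the inner-membrane carnitine palmitoyltransferase, ranged from 0.932 to 1.27 (median 1.12) in young mice and from 1.1 to 1.42 (median 1.2) in old mice. The lowest old value lay near the young median, and the groups overlapped. Its slope was 0.0493 per year (SE 0.0263, limma adjusted p = 0.937), and adult exceeded young in 7 of 10 couples. Without the mice with an outlying filter the slope was 0.0294, and adult minus young was 0.0465 in place of 0.0966. The representative clones of the long-chain synthetases Acsl4 and Acsl5 were below 0 in all 4 comparisons, with slopes of -0.0549 (SE 0.0382) and -0.0378 (SE 0.0333). Some of these values were small, with -0.003 for Acsl4 in adult minus young and -0.00175 for Acsl5 in old minus adult. Acsl5 was -0.0906 for adult minus young, and 0.00317 without the mice with an outlying filter. The dimmer Acsl4 clone gave -0.00645 for the slope and 0.0516 for adult minus young. Without the old female of replicate 4 the slope of the representative Acsl4 clone was -0.0305. That mouse's outlying filter was the one of set B, while this clone lies on set A. Fabp5, a fatty acid binding protein of epithelial and immune cells, had a male minus female difference of -0.0831 (SE 0.0601, limma adjusted p = 0.982).

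**Figure D2:**
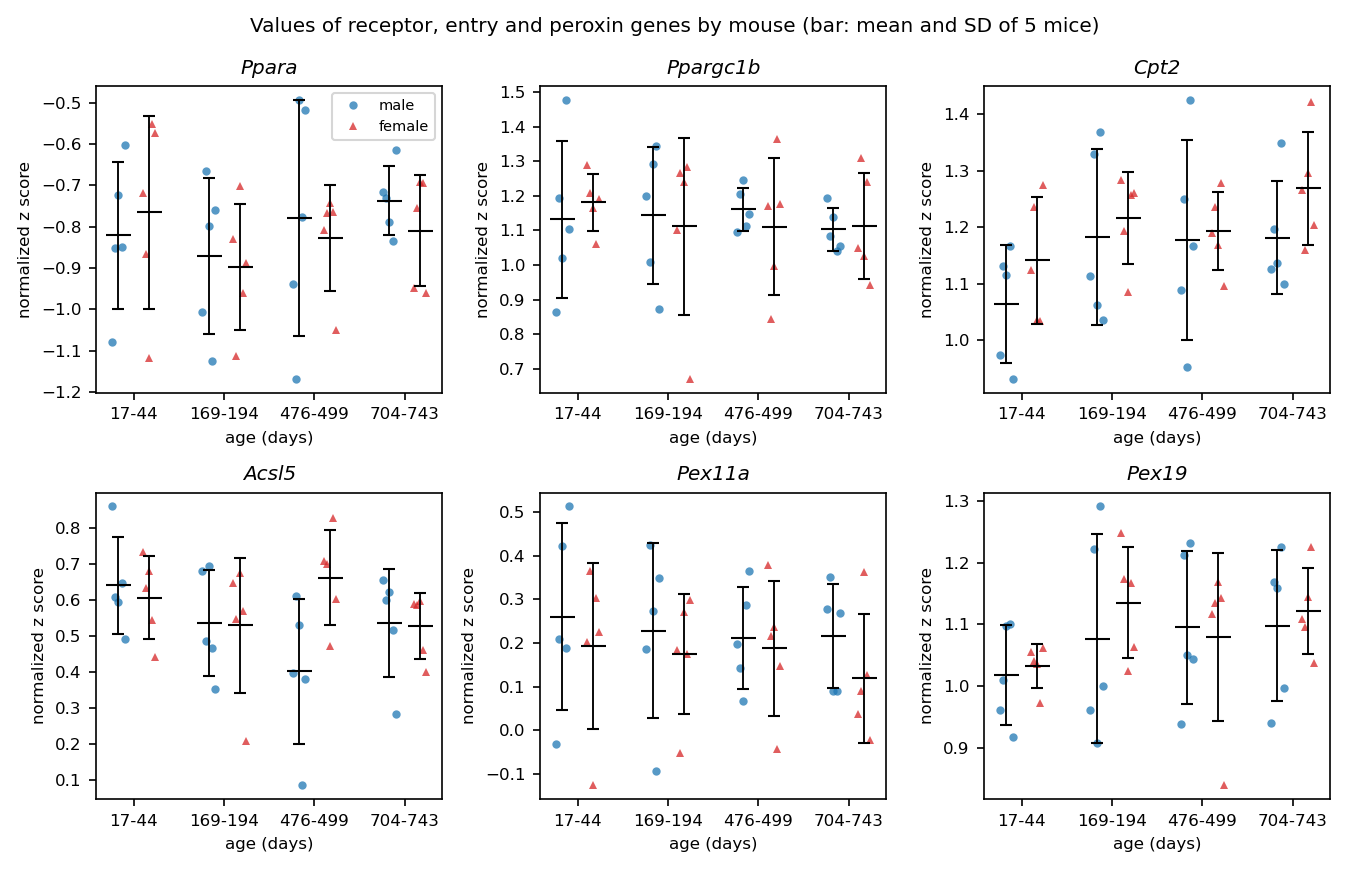
Normalized z scores of Ppara, Ppargc1b, Cpt2, Acsl5, Pex11a and Pex19 in each mouse by age and sex (circles male, triangles female); bars are the mean and SD of 5 mice. Male and female values overlapped at all 4 ages for each of the 6 genes.

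The acyl-CoA dehydrogenases, which catalyse the entry step of the spiral for chains of different length, held Acadl, with an age slope below 0 at an unadjusted p under 0.05, and Acadm, the most variable member. Of the 8 genes, 4 had slopes above 0 and 4 below, and for old minus adult 3 were above and 5 below, beside 50.3% and 50.6% of all clones above 0. The mean over the 8 was lower in old than in adult mice in each of the 5 rounds, with differences between -0.0719 and -0.0125. That mean deviation went from 0.0254 ± 0.0599 in adult to -0.0533 ± 0.0699 in old males and from -0.00172 ± 0.0488 in adult to 0.00138 ± 0.0321 in old females (SD, n = 5 each); whether the sexes differ in this was not tested. That mean includes Acadl, which at -0.219 had the largest single difference of the 8, one not seen in its second clone. The mean without Acadl was not taken.

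Acadl, long-chain acyl-CoA dehydrogenase, is on the filters as 2 clones, both among the dimmest 25% of their sets. The representative's values ran from -0.962 to -0.0928 in adult mice (median -0.572) and from -1.1 to -0.454 in old mice (median -0.872). The old mouse was lower than the adult of its sex and round in 10 of 10 couples, although the groups overlapped. The adult males of replicates 4 and 5 (-0.0928 and -0.29) were above the other 8 adults. Means were -0.687 ± 0.152 in young, -0.601 ± 0.276 in adult, -0.775 ± 0.169 at 476 to 499 days and -0.82 ± 0.196 in old mice (SD, n = 10 each).

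For Acadl, old minus adult was -0.219 (SE 0.0921; limma adjusted p = 0.9997) and the slope -0.0957 per year (SE 0.0433; limma adjusted p = 0.937). Those adult males are among the mice with an outlying filter. On set A, which holds this clone, only the filter of replicate 4 was outlying. Without all mice with an outlying filter, old minus adult was -0.12. The second Acadl clone, on the other filter set, gave -0.00525 for old minus adult and 0.034 for the slope. Across the 40 mice the clones correlated with Pearson r = 0.262 (permutation p = 0.103) and Spearman rho = 0.215 (permutation p = 0.184), and within rounds r ran from -0.501 to 0.419. The difference of the representative clone was thus not seen in the second.

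Acadm varied most among members, with an SD within groups of 0.371. The 5 young males read 1.6, -0.278, -0.295, -0.205 and -0.507, and the 5 young females 0.631, -0.289, -0.373, -0.261 and -0.327. Replicate 1 of each sex, both of round 1, stood far above the other 8 young mice. In old mice the males were at -0.668, -0.265, -0.625, -0.441 and -0.536 and the females at -0.129, -0.199, -0.216, -0.124 and -0.172, without overlap.

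The Acadm difference for adult minus young was -0.206 (SE 0.154) with all mice and -0.0137 without the young male of replicate 1, whose set A filter had the lowest mean correlation with the other filters of its set (0.888). Its slope of -0.128 per year (SE 0.0734, limma adjusted p = 0.937) became -0.0529 without that mouse. That male also held the highest value of the 40 mice for 7 of the 35 member genes (Acad9, Acadm, Acox3, Acsl5, Etfdh, Fabp5 and Hadha) and the lowest for 3 (Acaa2, Acad11 and Pex16). It held 14.3% of all member extremes and 8.69% of the extremes of all clones. The sex difference of Acadm in old mice, -0.339, lay between groups that do not overlap, but the test of a sex difference that varies with age gave F = 1.02 (limma adjusted p = 1).

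The other dehydrogenases differed less. Acads (short-chain) had a slope of 0.0369 (SE 0.0368) and Acadvl (very long-chain) of 0.0185 (SE 0.0263). Acadsb, which acts on short branched chains, was the least variable member, with an SD within groups of 0.0982. Acad11 gave 0.154 for adult minus young (SE 0.0803, limma adjusted p = 0.933) from a dim spot, and this was 0.00037 without the mice with an outlying filter. Acad8, of valine breakdown, was 0.0717 higher in males than in females (SE 0.0491, limma adjusted p = 0.982), and at 169 to 194 days its sexes did not overlap. Without the female of 476 to 499 days, replicate 1, the difference was 0.0417. The electron acceptors Etfa and Etfdh had slopes of 0.026 (SE 0.0408) and -0.0344 (SE 0.0344).

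**Figure D3:**
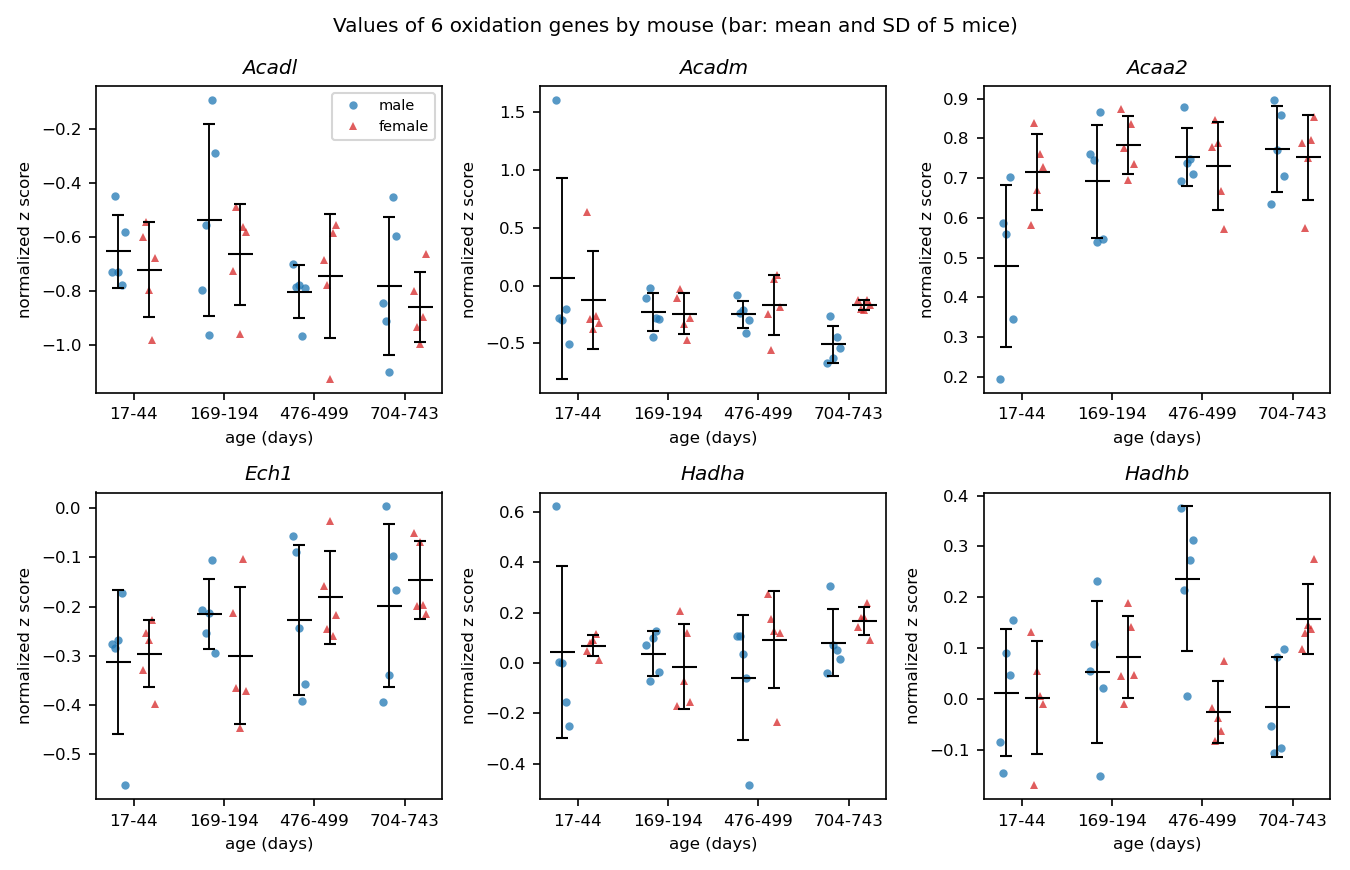
Normalized z scores of Acadl, Acadm, Acaa2, Ech1, Hadha and Hadhb in each mouse by age and sex (circles male, triangles female); bars are the mean and SD of 5 mice. A young male of 1.6 and a young female of 0.631 stand apart for Acadm, and the sexes are separate for Hadhb and Acadm in old mice.

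In the later steps of the spiral no gene passed the test, but over both sexes the slopes and the old minus adult differences had 1 sign. All 8 hydratase, isomerase, hydroxyacyl dehydrogenase and thiolase genes had a slope above 0 (50.3% of all clones did; median 0.0336 per year against 0.000255), and all 8 were above 0 for old minus adult (50.6% of all clones; median 0.065 against 0.000988). Their mean was higher in old than in adult mice in each of the 5 rounds, by 0.00334 to 0.158. These signs were not stable: over the alternatives the lowest old minus adult value was below 0 for Acaa2 (-0.00388), Echdc2 (-0.0204), Eci1 (-0.0392), Hadh (-0.0455) and Hadhb (-0.0571), and the lowest slope for Echdc2 (-0.0127), Eci1 (-0.00476) and Hadh (-0.0109). Ech1, Echs1 and Hadha stayed above 0 in both under all of them. For adult minus young the 8 divided evenly, 4 above and 4 below. From adult to old, their mean deviation went from 0.00576 ± 0.0496 to 0.0243 ± 0.0631 in males. In females it went from -0.0392 ± 0.0734 to 0.0713 ± 0.0559 (SD, n = 5 each). Old minus adult was below 0 for Hadh (-0.0875) and Hadhb (-0.0681) in males and for Acaa2 (-0.0311) in females. The 0.158 is of round 5, whose adult female (-0.129) and old female (0.153) had an outlying filter. Whether the sexes differ was not tested.

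Acaa2, the mitochondrial thiolase that releases acetyl-CoA, had values of 0.196 to 0.837 in young mice (median 0.628) and 0.54 to 0.873 in adult mice (median 0.753). Young males held the low end, at 0.196, 0.587, 0.559, 0.704 and 0.346. Young females were at 0.582, 0.837, 0.67, 0.76 and 0.728, higher than the male in 5 of 5 couples, and both sexes were close from 476 days on. Adult minus young was 0.141 (SE 0.0575; limma adjusted p = 0.933), higher in 8 of 10 couples. The slope was 0.0695 per year (SE 0.0295; limma adjusted p = 0.937). The 2 lowest young males are those with outlying filters, and without all mice with such filters the values were 0.073 for adult minus young and 0.0316 for the slope.

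Ech1, a dienoyl-CoA isomerase that prepares unsaturated chains, had the smallest p for the slope. Its means were -0.304 ± 0.108 in young, -0.258 ± 0.113 in adult, -0.205 ± 0.122 at 476 to 499 days and -0.172 ± 0.126 in old mice (SD, n = 10 each). Each mean was above that of the age before, while the groups overlapped throughout. The slope was 0.0659 per year (SE 0.0267; limma adjusted p = 0.937). Leaving out any 1 mouse left it between 0.054 and 0.0781, and it was 0.0587 or more under the other alternatives. Echs1, the short-chain hydratase, gave 0.147 for old minus adult (SE 0.0907, limma adjusted p = 0.9997), with medians of 0.889 in adult and 0.975 in old mice. Without the adult female of replicate 2 it was 0.0874. For Echs1 44% of the spread between mice lay between rounds. Eci1, the isomerase for unsaturated chains, was -0.101 for male minus female (SE 0.0597, limma adjusted p = 0.982), with a male median of 1.22 and a female median of 1.27. Without the mice of 17 to 21 days it was -0.0612. Hadh, the hydroxyacyl-CoA dehydrogenase for shorter chains, had a slope of 0.00971 (SE 0.0325), and Echdc2, a hydratase-like protein, a male minus female difference of 0.0953 (SE 0.0597, limma adjusted p = 0.982).

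Hadha and Hadhb, whose promoter windows overlap in the sequences printed above, showed no positive correlation. Across 40 mice their values correlated with Pearson r = -0.283 (permutation p = 0.0765) and Spearman rho = -0.171 (permutation p = 0.293). Without the 2 mice farthest from the median of Hadha, r was -0.0664, and within rounds it ran from -0.473 to 0.0593. Of the 5 relations computed (4 pairs of clones of a gene and this pair), none had a Benjamini-Hochberg adjusted p under 0.258. The pairs of clones of Acot7, Acsl4 and Pex19 correlated with r = -0.00425, 0.178 and 0.0701. The mice share rounds and filters, and Hadha and Hadhb lie on different filter sets.

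Hadhb was the member with the smallest p for a dependence of the sex difference on age. At 476 to 499 days the males were at 0.376, 0.215, 0.005, 0.274 and 0.313 and the females at -0.0185, -0.0838, -0.0369, -0.0633 and 0.074, the male higher in 5 of 5 couples. At 704 to 743 days the males were at -0.053, -0.107, 0.0824, -0.0968 and 0.0975 and the females at 0.0983, 0.129, 0.146, 0.138 and 0.276, the male lower in 5 of 5. The order of the sexes thus turned between these ages, and the old groups did not overlap. The old females of replicates 4 and 5 had outlying filters of set B, while Hadhb lies on set A. Leaving mice out cannot make separate groups overlap. Male minus female was 0.0101, -0.0297, 0.262 and -0.173 at the 4 ages in order. The test gave F = 5.29 (limma adjusted p = 1), so it did not pass over all clones.

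Acad9, which assists respiratory complex I assembly besides its dehydrogenase activity, followed with F = 3.59 (limma adjusted p = 1). Young males were at 0.691, 0.043, -0.113, -0.125 and 0.211 and young females at -0.193, -0.178, -0.141, -0.166 and -0.311, the male higher in 5 of 5 couples and without overlap. Its overall male minus female difference of 0.0811 was 0.0075 without the mice with an outlying filter. Non-overlapping sexes at 1 age were seen for 1 of 35 members in young mice (Acad9; 0.302% of all clones), 1 in adult mice (Acad8; 0.675%), 0 at 476 to 499 days (0.758%) and 2 in old mice (Acadm and Hadhb; 0.692%).

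Thioesterases, which split acyl-CoA back into acid and coenzyme A, were 3 above and 1 below 0 for the slope. Acot9 had 0.0416 per year (SE 0.029) and Acot7 -0.0404 (SE 0.0273), while the dimmer Acot7 clone gave 0.00722. Without the young male of replicate 5, whose filter was outlying, the Acot7 slope was -0.0185. Acot2 had 0.0312 (SE 0.0398) and Acot13 0.00516 (SE 0.0288). Acox3, a peroxisomal acyl-CoA oxidase, had a slope of 0.00916 (SE 0.0425).

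The peroxins were 5 above and 1 below 0 for the slope and evenly divided for old minus adult, 3 and 3. Slopes were 0.0108 (SE 0.039) for Pex2, 0.0164 (SE 0.0311) for Pex3, 0.0118 (SE 0.036) for Pex6 and 0.0478 (SE 0.0521) for Pex16. Pex19, the import receptor for peroxisomal membrane proteins, ranged from 0.918 to 1.1 in young mice (median 1.04) and from 0.908 to 1.29 in adult mice (median 1.11), and the groups overlapped. Adult minus young was 0.0805 (SE 0.054, limma adjusted p = 0.95), with the adult higher in 7 of 10 couples, and 0.172 (SE 0.087) in its dimmer clone. Without the mice with an outlying filter it was 0.0402. Pex11a, which drives peroxisome division and is induced by PPARalpha ligands, had a slope of -0.0258 (SE 0.034) and a sex difference of 0.0599 (SE 0.0529). Rounds took the largest shares of the spread between mice for Pex6 (54%) and Pex3 (48.8%), 2 peroxins for protein import and membrane assembly. Over the 39 member clones the median share between rounds was 18.7%, beside 18.4% for all clones. Age groups took a median of 5.57% (5.55% for all clones) and sex 1.19% (1.25%).

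**Figure D4:**
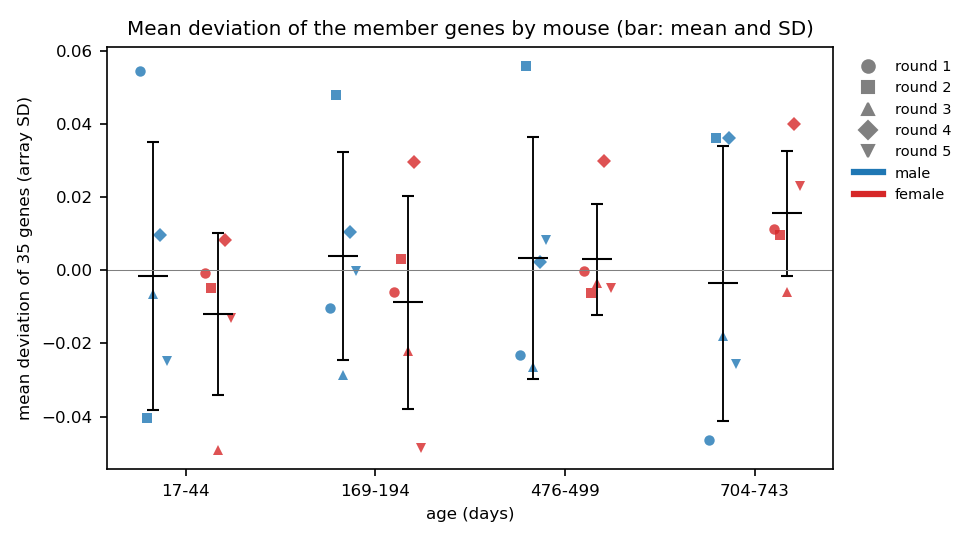
Mean deviation of the 35 member genes from their own means in each mouse, in array SD, by age and sex (colour) and round (symbol); bars are the mean and SD of 5 mice. Group means lie between -0.0119 and 0.0156, inside the spread of single mice.

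Averaged over the 35 genes, the mean deviation was -0.00675 ± 0.029 in young, -0.00243 ± 0.0279 in adult, 0.00318 ± 0.0242 at 476 to 499 days and 0.00601 ± 0.0294 in old mice (SD, n = 10 each). The age groups differed by less than the SD within them. Within rounds, old minus adult was above 0 in rounds 3, 4 and 5 and below 0 in rounds 1 and 2, between -0.00946 and 0.0229. Round 4 had the highest mean (0.0208 ± 0.0146) and round 3 the lowest (-0.02 ± 0.0152; SD, n = 8 each), a wider gap than between any age groups.

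Taking each member gene by itself, 24 of 35 had a slope above 0 (68.6%, beside 50.3% of all clones and 53.9% of the clones that represent named genes). The numbers above 0 were 18 for adult minus young (51% of all clones), 19 for old minus adult (50.6%) and 16 for male minus female (49.2%). Median differences were 0.0185 per year, 0.000275, 0.00441 and -0.00878, beside 0.000255, 0.0022, 0.000988 and -0.00117 over all clones. Old minus adult, adult minus young and the slope share mice and are not independent of each other.

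**Figure D5:**
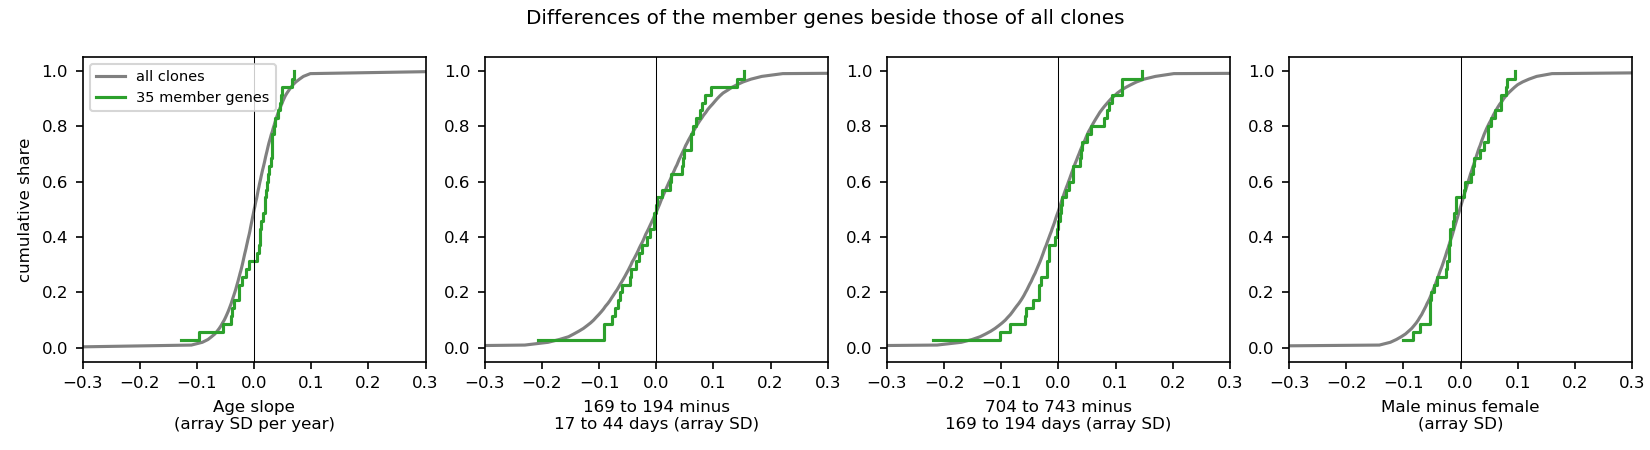
Cumulative share of the 35 member genes (green steps) and of all 16896 clones (grey, by percentile) against the difference in array SD (per year for the slope) in 4 comparisons. The member curve lies to the right of the grey curve near 0 for the age slope, where 24 of 35 genes are above 0, and close to it between the sexes.

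Some clones of other genes of these pathways were called between the sexes (0.107% of all clones were). None of these calls held under all alternatives. Of 39 listed peroxisomal enzymes and membrane proteins 18 had a representative clone, and 1, Pecr, a peroxisomal enoyl-CoA reductase, was called: males were at -0.444 ± 0.151 and females at -0.733 ± 0.159 (SD, n = 20), a difference of 0.29 (SE 0.0502, limma adjusted p = 0.00226, 0.00122 to 0.103 over the alternatives), with the male higher in 18 of 20 couples. Of 43 listed genes of fatty acid supply, ketone bodies and control 18 had a clone, and 1, Acat1, the mitochondrial acetoacetyl-CoA thiolase, was called: males were at 0.309 ± 0.14 and females at 0.0287 ± 0.211 (SD, n = 20), a difference of 0.28 (SE 0.0582, limma adjusted p = 0.0242, 0.00211 to 0.127 over the alternatives), with the male higher in 17 of 20 couples. A dimmer clone of Ephx2, a peroxisomal and cytosolic epoxide hydrolase, was also called, 0.306 higher in males (SE 0.0576, limma adjusted p = 0.00646, 9.14e-07 to 0.194 over the alternatives), while its brighter clone gave 0.129 (SE 0.0908, limma adjusted p = 0.982). None of these representative clones was called with age in limma. At an unadjusted p under 0.05, 1 of each list (5.56%, beside 5.08% of all clones) passed for adult minus young, with Ephx2 at 0.26 on the peroxisomal list. For old minus adult it was again 1 of each (5.56%, beside 2.36%), with Ephx2 at -0.379 and 0.0473 in its dimmer clone. For the slope it was 1 peroxisomal gene (5.56%, beside 5.2%), Mpv17 at 0.0713, whose dimmer clones gave 0.025 and 0.00717. Catalase (Cat), the marker enzyme of peroxisomes, had a slope of -0.0353 (SE 0.0231) and a sex difference of 0.0437 (SE 0.0343). Of the supply and ketone genes 16 of 18 were above 0 for adult minus young (51% of all clones were) and 3 of 18 for old minus adult (50.6%); both comparisons use the same adult mice.

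Markers of the kidney's own cells were partly on the filters. Of 16 proximal tubule markers 4 had a clone. Lrp2 and Miox gave bright spots (94.3% and 89.3% of the clones of their set were dimmer), Cubn a moderate one and Acy3 a dim one, though a spot's brightness also depends on its clone. Some markers of other tissues were bright too, such as Star of the adrenal (93.6%) and Alb of the liver (86.3%). Th of the adrenal and Ttr of the liver lay near the middle (51.6% and 54.7%). All 4 proximal tubule markers were above 0 for adult minus young, Acy3 by 0.379 (SE 0.096, limma adjusted p = 0.933) and the others by 0.0267 to 0.0818. Their mean deviation was lowest in the young males of replicates 1 and 5 (-0.26 and -0.198). Both are among the mice with an outlying filter, for replicate 5 only that of set B. For that mean, adult minus young was 0.355 in round 1 and 0.0548 to 0.118 in the other rounds. Miox had a slope of 0.0753 per year (limma adjusted p = 0.937). Of 8 adipocyte markers only Slc2a4 had a clone, with a slope of -0.0175, and of 7 skeletal muscle markers 0 had one. Of 7 adrenal markers 3 had a clone, with slopes of -0.0603 for Cyp11a1, -0.00909 for Th and 0.0509 for Star per year, none called (limma adjusted p = 0.937 for Cyp11a1, the lowest). The part of any of these in the members' values was not tested. In whole kidney, fewer cells of a type and less RNA per cell cannot be told apart.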

How the data were processed

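Kidney RNA of 40 mice was measured on 80 nylon filters of 2 sets. The deposited values are z scores (a score per clone with mean 0 and SD 1 on each filter), per the labels; how the images were read and corrected for background before that is not stated in the sources used. No value was missing, and 0 columns of values were left unused. Arrays were quantile normalized within each set and fitted with limma 3.58.1 in R 4.3.3 (lmFit, eBayes): age in years of 365 days with sex for the slope, and 8 sex and age group means for the other comparisons. p-values were Benjamini-Hochberg adjusted over all 16896 clones and called at an adjusted p under 0.05. Correlations were tested by permutation (Python 3.11.15, scipy 1.17.1, statsmodels 0.14.6). No counts underlie these values, so the number of arrays limits the precision. The fitting code was tested on simulated data.

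Genes were named from the platform annotation: 9663 clones have 1 symbol, 436 several and 6797 none listed, and the symbols of all 39 member clones matched RefSeq by identifier. The genes described in detail are, per comparison, the 4 of smallest p above and below 0 and a fixed roster of 43 genes, of which 19 were on the filters. Members, roster, roles and marker lists were chosen with earlier results of these data known. The other members named (Acadsb, Acox3, Pex2, Pex3, Pex6 and Ppargc1b) were added after their values were seen. Alternatives were the values as deposited, no dim clones (25% left out), round as a block, array weights, leaving out the mice of 17 to 21 days, those with an outlying filter, or each mouse, and averaging clones.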

Additional observations from a re-analysis of the deposited data

Results flagged for a closer look

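Among 240 groups of 5 mice (the genes described and the mean deviation of the members), 18 held a mouse far from the other 4 by Dixon's criterion, which chance passes in about 1 in 20 groups. In young mice these were Acadm in male replicate 1 (1.6, others -0.507 to -0.205) and female replicate 1 (0.631, others -0.373 to -0.261), Ech1 in male replicate 5 (-0.563), Hadh in male replicate 5 (0.652, others 0.209 to 0.3) and Pex19 in female replicate 4 (0.972). In adult mice they were Acsl5 in female replicate 5 (0.209, others 0.547 to 0.675), Eci1 in male replicate 5 (0.945), and Hadh in female replicate 5 (-0.118) and male replicate 2 (0.728). At 476 to 499 days they were, in females, Acad8 in replicate 1 (-0.341, others 0.189 to 0.372), Eci1 (1.02) and Etfdh (0.0508) in replicate 3, Pex19 (0.84) and Ppara (-1.05) in replicate 5, and the mean deviation of the members in replicate 4 (0.0298). In males of that age Hadha stood apart in replicate 5 (-0.484). In old females Eci1 (1.83, others 1.14 to 1.28) and Hadhb (0.276) did so in replicate 5.

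For Hadhb, male minus female was 0.262 at 476 to 499 days, above 0 in 5 of 5 couples, and -0.173 at 704 to 743 days, below 0 in 5 of 5 couples. The F test for a dependence of the sex difference on age did not pass (limma adjusted p = 1).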

How the results depend on the processing

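Member clones called numbered 0 in all 5 comparisons under each alternative and without each mouse in turn. Over all clones, the age slope had 2 calls with the inferred round as a replicate block, 2 with array weights and 0 to 1 without single mice (1 without each of old male replicate 1, old female replicates 1 and 2, 476 to 499 day female replicate 2 and young female replicate 4). Adult minus young had 1 call and male minus female 11 without the mice of 17 to 21 days (27 with array weights, 18 with all settings as reported), and old minus adult 1 with array weights. The replicate block pairs mice only by serial numbers in the titles; with it the median slope of the members was 0.0185. Of 1473 alternative values for 32 results on single members, 1469 kept their sign. For each result 40 of these values left out a single mouse, and the results were picked by smallest p in a direction. Most values were thus bound to keep their sign, and the count is no measure of stability. The 4 that reversed were the slopes of Acadl (0.034) and Acot7 (0.00722) in the other clone of the gene, an alternative chosen after seeing the data, and, without the mice with an outlying filter, Acsl5 for adult minus young (0.00317) and Acad11 for old minus adult (0.0361). The cause was not tested. Over the alternatives and without single mice, the members' medians ranged from -0.0149 to 0.0152 for adult minus young and from -0.00819 to 0.0227 for old minus adult.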
